A study of Mus musculus with 15 samples.

Results

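The 10 genes described here encode the growth factors IGF1, CSF1, osteopontin (Spp1), PDGF-A (Pdgfa), PDGF-B (Pdgfb) and HB-EGF (Hbegf) and the receptors Igf1r, Igf2r, Csf1r and Csf2ra. They were taken by name from the 36528 genes in the count files, as a list drawn up with earlier results of these data known. RNA was sequenced from Cx3cr1::GFP+ cells that had been sorted from mouse cortex as microglia, with GFP read from the fractalkine receptor gene Cx3cr1 in every sample of both genotypes. The 9 PS2APP samples carry transgenes for mutant human presenilin 2 and amyloid precursor protein, which together model the amyloid disease of Alzheimer's patients, and the 6 non-Tg samples carry neither. Of these, 4 PS2APP and 2 non-Tg samples were labelled 14 months of age, and 5 PS2APP and 4 non-Tg samples 15 months. The labels name neither the promoters that drive the transgenes nor whether each sample is 1 mouse, so p-values measure the spread between samples.

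IGF1 is a secreted hormone-like factor that signals through the receptor tyrosine kinase IGF1R, while IGF2R binds IGF2 and carries lysosomal enzymes without signalling as a kinase. CSF1 and IL-34 are the ligands of CSF1R, on which microglia depend for survival, and CSF2RA is the ligand-binding chain of the GM-CSF receptor. Osteopontin is a secreted phosphoprotein that binds integrins and CD44, PDGF chains signal through PDGFRA and PDGFRB, and HB-EGF is a membrane-anchored ligand of the EGF receptor family. In the brain, Igf1, Spp1 and Csf1 are known from microglia around amyloid plaques and in developing white matter.

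Library totals ran from 3664742 to 8455237 counts with a median of 5867848. Levels are given as CPM, counts scaled to library size and, by the TMM method, to composition. Of the marker lists, that of microglia was highest: summed over 10 markers they reached 27968 to 39309 CPM in non-Tg and 22767 to 34428 CPM in PS2APP samples. None of the 10 was called in the edgeR test, but each had a log2 fold change below 0, from -0.50 to -0.02 with a median of -0.21. The sum of 12 immediate early genes was 4148 CPM in PS2APP 1, 4266 in PS2APP 4, 9016 in non-Tg 9 and 16961 in non-Tg 13, against 273 to 444 CPM in the other 11 libraries. The sum of 8 mural and fibroblast markers was 215 CPM in PS2APP 6, 253 in PS2APP 8 and 228 in non-Tg 5, against 9.71 to 41.4 CPM elsewhere. In PS2APP 8 the collagen genes Col1a1 and Col1a2 of this list reached 103 and 110 CPM. The list members Rgs5 and Acta2 were highest in non-Tg 11 (11.2 and 23 CPM), and Tagln in PS2APP 8 (9.9 CPM). Libraries named below as high in these markers are high in the sum, not in each marker. The sum of 10 neuron markers did not overlap between the genotypes, at 240 to 457 CPM in non-Tg and 63.7 to 229 CPM in PS2APP samples, and its part in the results was not tested beyond a fit with the markers as a covariate, given below. Of the 9 tested neuron markers edgeR called 2 lower and 0 higher. The 2 were Slc17a7 (log2 fold change -1.94, edgeR adjusted p = 0.0388) and Gad2 (-2.26, edgeR adjusted p = 0.0315). Markers of other cell types were also called by edgeR. Of the astrocyte markers Gfap rose (log2 fold change 2.08, adjusted p = 0.0120) and Slc1a2 fell (-1.01, adjusted p = 0.0202), with sums of 439 to 1078 CPM in non-Tg and 310 to 607 CPM in PS2APP samples. Cspg4, on the oligodendrocyte precursor list, rose (4.19, adjusted p = 0.000121). The other tested genes of that list, Bcan (-1.15) and Tnr (-1.12), were below 0 and not called. The sums of that list were 6.93 to 25.7 CPM in non-Tg and 12.2 to 39.6 CPM in PS2APP samples, with Cspg4 itself at up to 31.3 CPM in PS2APP 6. Ttr, on the choroid plexus list, fell (-3.40, adjusted p = 0.0405), with sums of 0.831 to 312 CPM, the highest in non-Tg 9, and 0.864 to 28.9 CPM. The part of these markers in the results was not tested. In bulk RNA from sorted cells, a change in the number of cells that hold a transcript and a change in its amount per cell cannot be told apart.

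All 10 genes passed the filter on low counts. With edgeR's quasi-likelihood test, age as a term and Benjamini-Hochberg adjustment over all 13994 genes tested, 4 of the 10 were called at an adjusted p under 0.05, namely Igf1, Csf1, Csf2ra and Spp1, and all 4 rose in PS2APP. Over all genes tested, 0.958% were called higher in PS2APP and 1.18% in either direction. None of the 10 fell in the edgeR test, in DESeq2 or in limma-voom, and 0.222% of all genes tested were called lower by edgeR. Limma-voom was run with quality weights per sample, here and below. At an unadjusted p under 0.05, which 11.7% of all genes tested passed in either direction, 4 of the 10 were higher and 1, Hbegf, was lower. In 2 of the 10, Igf1 and Csf1, every PS2APP sample lay above every non-Tg sample, which held for 0.572% of all genes tested (0.636% in either direction). The median log2 fold change of the 10 genes was 0.25, with 7 above 0 and 3 below, beside a median of -0.02 over all genes tested.

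**Figure D1:**
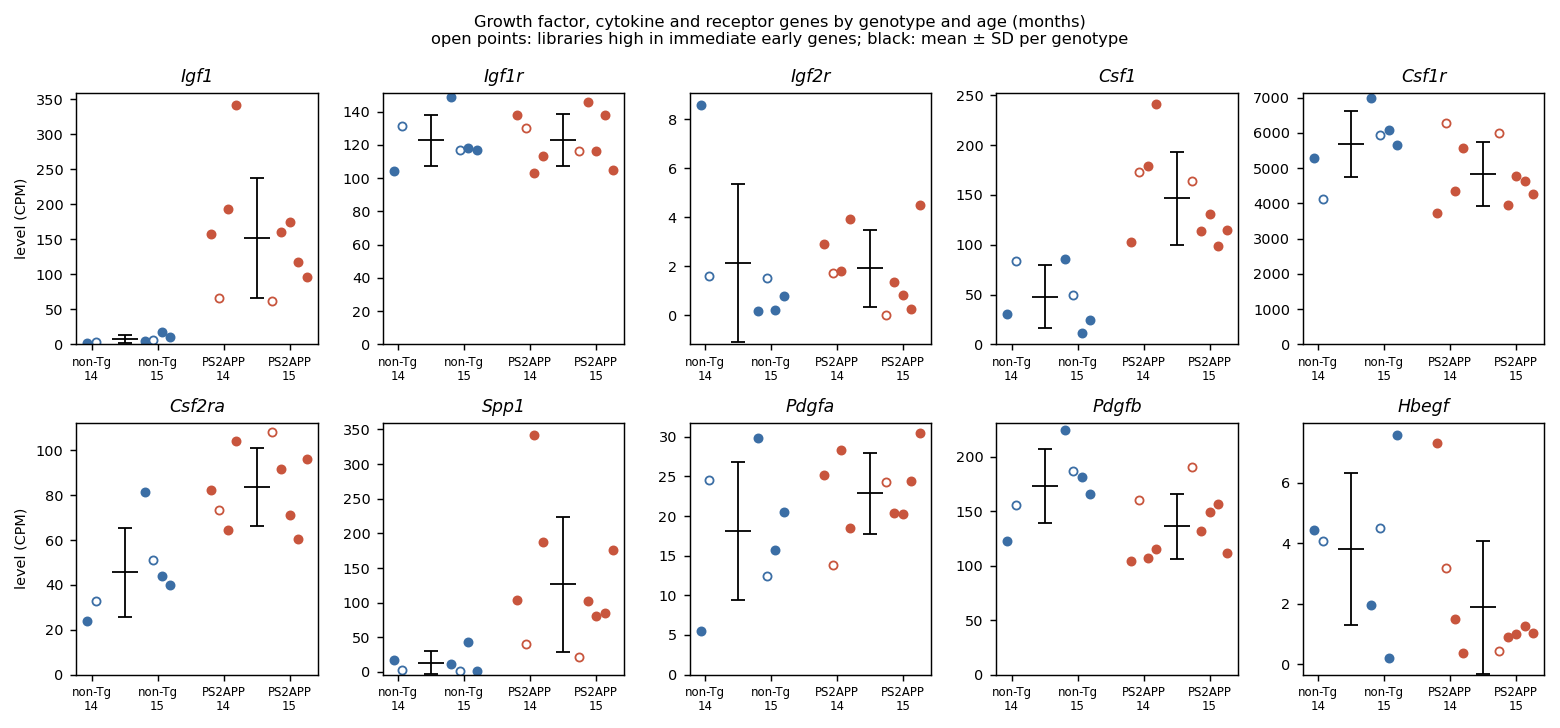
Level of each gene in CPM (vertical axis, from 0, or from below 0 for Igf2r, Spp1 and Hbegf, where an SD bar passes 0) by genotype and age in months, with 1 point per library, open points for the 4 immediate early-high libraries, and black bars for the mean ± SD over the 6 non-Tg and 9 PS2APP libraries. The PS2APP points of Igf1 (62.5 to 342 CPM) and Csf1 (99.1 to 241 CPM) all lie above the non-Tg points, whereas those of Igf1r (103 to 146 CPM) lie within or near the non-Tg range.

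Igf1 had the largest fold change of the 10 genes. In the non-Tg samples Igf1 had 2.22 CPM at the lowest, 5.40 at the median and 17.6 at the highest, from 260 reads in all. In the 9 PS2APP samples it had 62.5 CPM at the lowest, 157 at the median and 342 at the highest, from 7387 reads. The ranges were apart, so that PS2APP 1, the lowest PS2APP sample, stood above non-Tg 11, the highest non-Tg sample. Mean levels were 152 ± 85.2 CPM (SD, n = 9) and 7.34 ± 5.79 CPM (SD, n = 6). The fitted log2 fold change was 4.37 ± 0.47 (SE), a 20.6-fold rise with a 95% interval of 10.4 to 40.9 and an edgeR adjusted p of 8.26e-06.

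Within the PS2APP group, Igf1 was lowest in PS2APP 1 (62.5 CPM) and PS2APP 4 (66.2 CPM), the pair with high immediate early genes. It was highest in PS2APP 8 (342 CPM) and PS2APP 6 (193 CPM), the pair with a high sum of mural and fibroblast markers. In non-Tg 5, the third library with a high sum of these markers, Igf1 was the lowest of all 15 (2.22 CPM). Without the 4 immediate early-high libraries the log2 fold change of Igf1 was 4.19 (edgeR adjusted p = 8.6e-05), and without the 3 high in mural and fibroblast markers it was 3.96 (edgeR adjusted p = 2.9e-05). The gene lies on the plus strand at chr10:87858265-87937047 (GRCm38) and overlaps the antisense gene Igf1os outside its exons.

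The receptors of the IGF axis did not pass the test. Igf1r, which transmits the IGF1 signal, had 104 CPM at the lowest, 117 at the median and 149 at the highest in non-Tg samples. In PS2APP samples it had 103, 116 and 146 CPM at the same points. The ranges were nearly the same, and the log2 fold change of Igf1r was 0.01 with a 95% interval of -0.28 to 0.30 (edgeR adjusted p = 0.989). Igf2r was close to the limit of detection, with 62 reads over the non-Tg and 95 reads over the PS2APP samples. Its highest value was 8.59 CPM in non-Tg 5, and PS2APP 1 had 0 reads, which allows up to 0.638 CPM (3 reads, counting error only). The 95% interval of the Igf2r log2 fold change, 0.13, was -1.35 to 1.62 (edgeR adjusted p = 0.975), and no change was detected. Without non-Tg 5 the value was 0.91 (edgeR adjusted p = 0.709).

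Csf1, a ligand of the receptor that microglia need to survive, rose in PS2APP. Non-Tg samples had 11.2 CPM of Csf1 at the lowest, 40.1 at the median and 86.0 at the highest. PS2APP samples had 99.1 CPM at the lowest, 131 at the median and 241 at the highest. Again no PS2APP sample fell into the non-Tg range, although PS2APP 14 at 99.1 CPM stood close to non-Tg 2 at 86.0 CPM. Mean levels were 147 ± 46.7 CPM (SD, n = 9) and 47.6 ± 31.6 CPM (SD, n = 6), and the fitted rise was 2.95-fold with a 95% interval of 1.84 to 4.73 (log2 fold change 1.56 ± 0.33 (SE), edgeR adjusted p = 0.0153). Csf1 lies on the minus strand at chr3:107741048-107760469 (GRCm38).

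The call of Csf1 was lost in some subsets, with the direction kept. Leaving out non-Tg 5 gave an edgeR adjusted p of 0.0507, while the other 14 fits without 1 library kept the call, with log2 fold changes of 1.38 to 1.89 over all 15. Without the 4 immediate early-high libraries the log2 fold change was 1.77 (edgeR adjusted p = 0.053), and without the 3 high in mural and fibroblast markers it was 1.34 (edgeR adjusted p = 0.137). PS2APP 8 and PS2APP 6, which have a high sum of those markers, had the highest Csf1 levels of the PS2APP group at 241 and 179 CPM. Non-Tg 5, which also has a high sum, had 30.2 CPM of Csf1, below the non-Tg median of 40.1 CPM.

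Csf1r, the receptor of CSF1, was the most abundant of the 10 genes and was not called. Its non-Tg samples ran from 4136 CPM through a median of 5802 to 6977 CPM, and its PS2APP samples from 3721 through 4634 to 6282 CPM. The ranges overlapped widely, with 7 of 9 PS2APP samples below the non-Tg median. The log2 fold change of Csf1r was -0.21 with a 95% interval of -0.51 to 0.08 (edgeR adjusted p = 0.598). PS2APP 4 and PS2APP 1, high in immediate early genes, had the highest Csf1r levels of their group, at 6282 and 6009 CPM. The non-Tg libraries high in these genes did not stand out in this way. Non-Tg 13 had the lowest Csf1r level of its group, at 4136 CPM, and non-Tg 9 had 5949 CPM. Exons of Csf1r overlap those of Hmgxb3 on the other strand, and whether reads were counted by strand is not given in the sources used here.

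Csf2ra, the ligand-binding chain of the GM-CSF receptor, rose 1.94-fold. Non-Tg samples had 23.8 CPM at the lowest, 42.0 at the median and 81.4 at the highest, and PS2APP samples 60.3, 82.5 and 108 CPM. All 9 PS2APP samples lay above the non-Tg median, and the groups overlapped only through non-Tg 2 at 81.4 CPM, since the next non-Tg sample had 51.2 CPM. Mean levels were 83.6 ± 17.5 CPM (SD, n = 9) and 45.5 ± 19.9 CPM (SD, n = 6), and the fitted rise had a 95% interval of 1.42 to 2.67 and an edgeR adjusted p of 0.0276. Csf2ra lies on the minus strand at chr19:61217191-61228461 (GRCm38).

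Of the 4 genes, Csf2ra was called in the fewest of the alternative fits. Its edgeR adjusted p was 0.0650 without PS2APP 1, 0.0655 without PS2APP 15, 0.0980 without non-Tg 5, 0.0783 without non-Tg 12 and 0.0953 without non-Tg 13, and below 0.05 in the other 10 fits without 1 library. Across the 15 fits its log2 fold change ran from 0.82 to 1.15, all above 0. Without the age term the value of Csf2ra was 0.87 (edgeR adjusted p = 0.0558), without the 4 immediate early-high libraries 0.86 (0.168) and without the 3 high in mural and fibroblast markers 0.79 (0.171).

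Spp1, which encodes osteopontin, rose in PS2APP and varied most among the called genes. Non-Tg samples had 1.08 CPM at the lowest, 7.49 at the median and 43.9 at the highest. PS2APP samples had 21.3 CPM at the lowest, 103 at the median and 342 at the highest, a 16.1-fold span within 1 genotype. All 9 PS2APP samples stood above the non-Tg median and 7 above the non-Tg maximum, while non-Tg 11 at 43.9 CPM stood above PS2APP 1 at 21.3 and PS2APP 4 at 40.6 CPM. Mean levels were 127 ± 97.6 CPM (SD, n = 9) and 13.2 ± 16.5 CPM (SD, n = 6). The fitted rise was 8.99-fold with a 95% interval of 3.23 to 25.0 (log2 fold change 3.17 ± 0.71 (SE), edgeR adjusted p = 0.0239).

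The spread of Spp1 followed some of the same libraries as that of Igf1. PS2APP 1 and PS2APP 4 were lowest in both genes, and PS2APP 6 and PS2APP 8 were the 2 highest in both. Without the 4 immediate early-high libraries the log2 fold change of Spp1 was 2.83 (edgeR adjusted p = 0.0272), and without the 3 high in mural and fibroblast markers it was 3.05 (edgeR adjusted p = 0.0914). Leaving out non-Tg 11 raised it to 4.22, and the edgeR adjusted p was 0.0508 without non-Tg 2, 0.0630 without non-Tg 5, 0.0592 without non-Tg 13 and 0.0674 without PS2APP 15. Spp1 lies on the plus strand at chr5:104435111-104441053 (GRCm38), where 1 unclassified gene model, Gm42793, shares exon sequence on the same strand.

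None of the PDGF chains or Hbegf was called. Pdgfa, which encodes a ligand of PDGFRA, had 5.54 CPM at the lowest, 18.1 at the median and 29.9 at the highest in non-Tg samples, and 13.8, 24.3 and 30.5 CPM in PS2APP samples. The groups overlapped, and its log2 fold change was 0.36 with a 95% interval of -0.25 to 0.97 (edgeR adjusted p = 0.691). An antisense gene, 6330403L08Rik, shares exon sequence with Pdgfa. Pdgfb, which encodes the chain that binds PDGFRB, had 123, 173 and 225 CPM in non-Tg samples and 104, 132 and 191 CPM in PS2APP samples. In Pdgfb, 8 of 9 PS2APP samples lay below the non-Tg median, yet the log2 fold change of -0.30 had a 95% interval of -0.61 to 0.01 (edgeR adjusted p = 0.457). Its highest PS2APP values, 191 and 160 CPM, were those of PS2APP 1 and PS2APP 4, high in immediate early genes. The non-Tg libraries high in those genes, non-Tg 9 and non-Tg 13, had 187 and 156 CPM, on either side of the non-Tg median.

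Hbegf, the EGF receptor ligand, was counted at 145 reads over the non-Tg and 98 reads over the PS2APP samples. Non-Tg samples had 0.207 CPM at the lowest, 4.26 at the median and 7.59 at the highest, and PS2APP samples 0.374, 1.02 and 7.32 CPM. Most PS2APP samples were low, with 8 of 9 below the non-Tg median, and PS2APP 3 alone reached 7.32 CPM. The log2 fold change of Hbegf was -1.39 with a 95% interval of -2.77 to -0.01, an unadjusted p of 0.0483 and an edgeR adjusted p of 0.420.

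**Figure D2:**
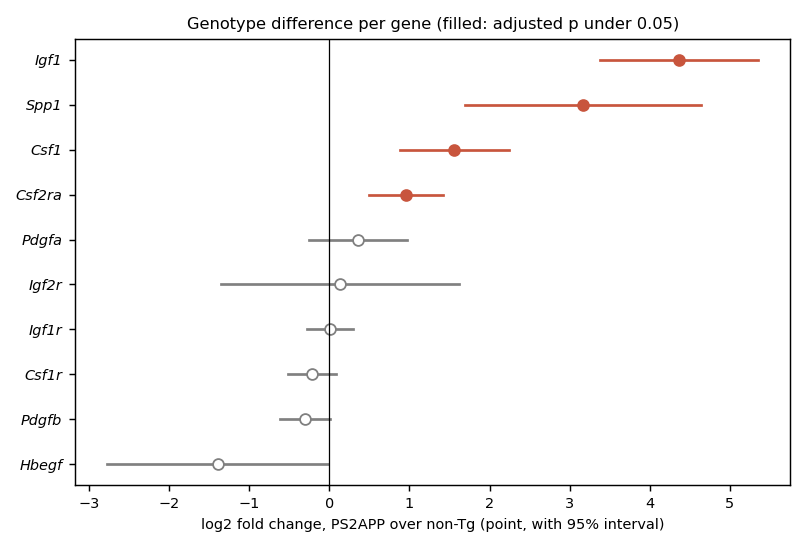
Log2 fold change of PS2APP over non-Tg (horizontal axis) for each of the 10 genes with its 95% interval, from the edgeR fit with age as a term, filled where the adjusted p was under 0.05. The filled points run from 0.96 (Csf2ra) to 4.37 (Igf1), and the widest intervals belong to Igf2r (-1.35 to 1.62) and Spp1 (1.69 to 4.64).

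To compare the genes with each other, the deposited RPKM values were used, in which a count is divided by the length of the gene and the size of the library. In PS2APP samples Csf1r stood first with a median of 286 RPKM (231 to 391), followed by Spp1 at 16.7 (3.39 to 54.9), Csf2ra at 9.60, Csf1 at 7.82, Pdgfb at 7.27, Igf1 at 4.70, Pdgfa at 3.82 and Igf1r at 2.51 RPKM. Hbegf at 0.115 and Igf2r at 0.0518 RPKM came last. Among neighbours in this order, only Csf1r and Spp1, and Igf1r (2.25 to 3.22) and Hbegf (0.0416 to 0.824), had ranges that did not overlap.

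In non-Tg samples Csf1r again stood first at a median of 360 RPKM (256 to 430), and Pdgfb was next at 9.53 RPKM (6.77 to 12.3). Then came Csf2ra at 4.89, Pdgfa at 2.89, Igf1r at 2.57, Csf1 at 2.41, Spp1 at 1.20, Hbegf at 0.480, Igf1 at 0.160 and Igf2r at 0.0341 RPKM. Only Csf1r and Pdgfb were neighbours without overlap. Among the ligands, Pdgfb was thus highest per length in the non-Tg samples and Spp1 in the PS2APP samples, as medians.

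**Figure D3:**
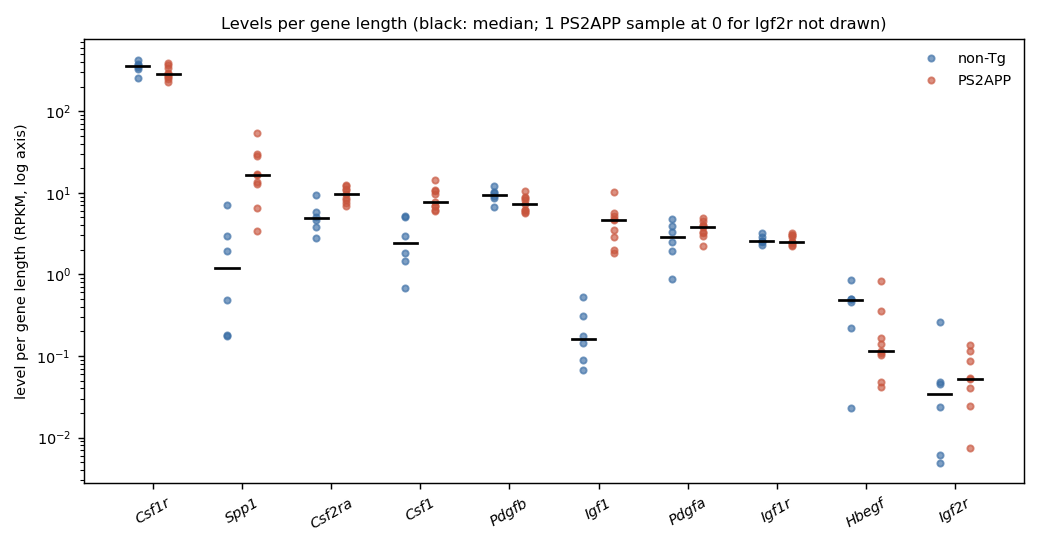
Level per gene length in RPKM (log axis) for each gene in every non-Tg and PS2APP library, with black bars for the group medians. The median of Csf1r is 360 RPKM in non-Tg and 286 RPKM in PS2APP libraries, and that of Igf1 moves from 0.160 to 4.70 RPKM. The PS2APP sample with 0 for Igf2r is not drawn.

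Both ages held both genotypes. With edgeR, none of the 10 genes was called for age, beside 0 of 13994 over all genes, and 2 of the 10 (Igf2r and Pdgfb) had an unadjusted p under 0.05, which 7.95% of all genes had. None was called for a genotype difference that differed between the ages, again beside 0 over all genes, and 2 of the 10 had an unadjusted p under 0.05, which 7.42% of all genes had. These were Igf1 (unadjusted p = 0.00403, edgeR adjusted p = 0.612) and Csf2ra (unadjusted p = 0.0497, edgeR adjusted p = 0.666). Igf1 averaged 190 ± 115 CPM (SD, n = 4) against 2.63 ± 0.58 CPM (SD, n = 2) at 14 months and 122 ± 46.0 CPM (SD, n = 5) against 9.70 ± 5.79 CPM (SD, n = 4) at 15 months. Fitted within each age, Igf1 was called at both, with log2 fold changes of 6.15 at 14 months (edgeR adjusted p = 0.00643) and 3.66 at 15 months (edgeR adjusted p = 0.000157).

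The other 3 called genes were higher in PS2APP at both ages but were called at neither age alone. For Csf1 the log2 fold changes were 1.63 at 14 months and 1.53 at 15 months, with edgeR adjusted p of 0.163 and 0.149. For Csf2ra they were 1.54 and 0.65, with edgeR adjusted p of 0.0545 and 0.337. For Spp1 they were 4.11 and 2.71, with edgeR adjusted p of 0.086 and 0.195. Only 2 non-Tg samples were available at 14 months.

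**Figure D4:**
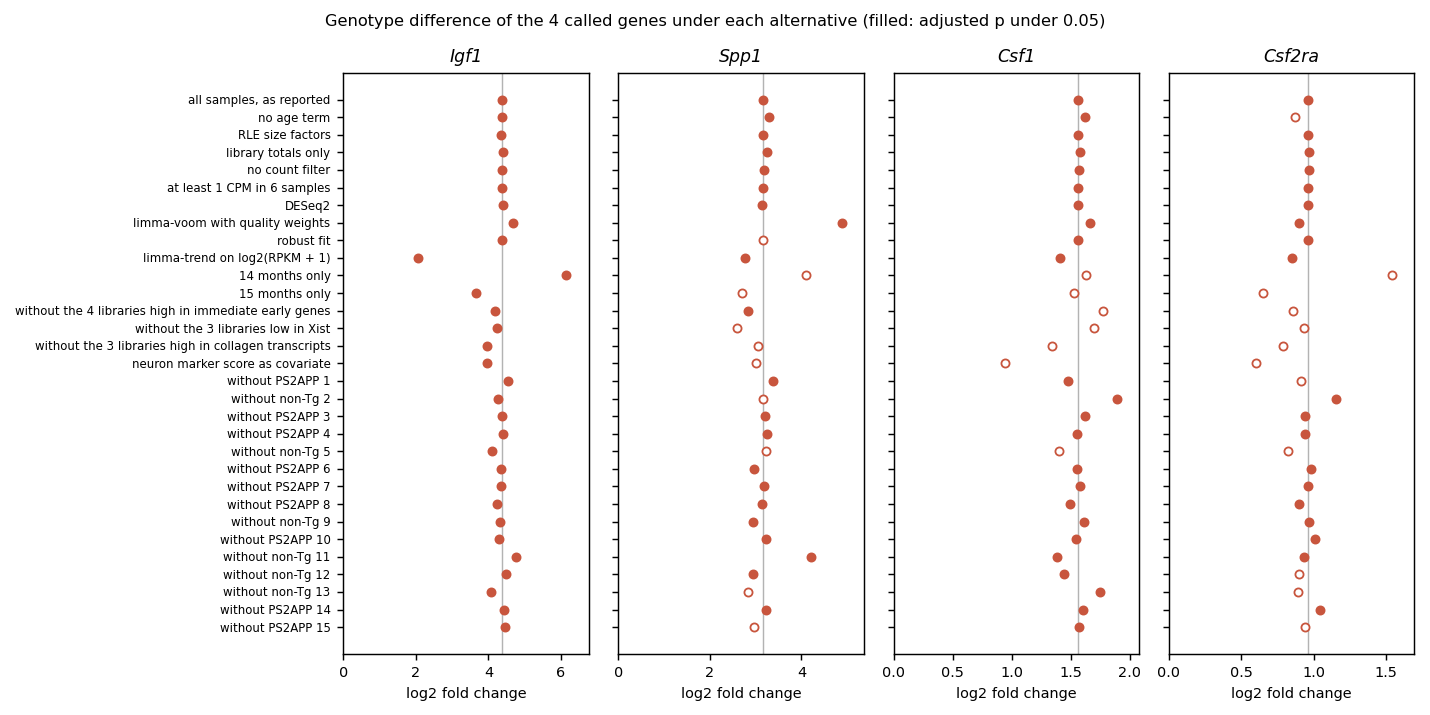
Log2 fold change of PS2APP over non-Tg (horizontal axis, starting at 0) of the 4 called genes in the reported fit, marked by the vertical line, and under each alternative, filled where the adjusted p was under 0.05. Every point lies above 0; Igf1 is filled throughout, and Csf1, Csf2ra and Spp1 are open under several of the sample subsets.

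A fit with the mean level of the neuron markers as a covariate called Igf1 alone, at 3.95 on the log2 scale (edgeR adjusted p = 0.0298). For Csf1, Csf2ra and Spp1 the values were 0.94, 0.60 and 3.01, each with an edgeR adjusted p of 1 after rounding. Since the neuron marker sums did not overlap between the genotypes, this covariate and genotype cannot be fully told apart. Without 3 libraries that were low in the female-specific transcript Xist (PS2APP 14, non-Tg 12 and non-Tg 13), Igf1 had a log2 fold change of 4.23 and was called (edgeR adjusted p = 0.000866). In that subset Csf1 had 1.70, Csf2ra 0.93 and Spp1 2.59, with edgeR adjusted p of 0.0683, 0.147 and 0.145. The robust edgeR fit ended the call of Spp1 (adjusted p = 0.160). Limma-voom with quality weights per sample put the log2 fold change of Spp1 at 4.88 (adjusted p = 0.0122), beside 3.17 in the reported fit.

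Within the 9 PS2APP samples, the 15 pairs among the 6 ligand genes were compared on the log2 CPM scale, with exact permutation over all 362880 orderings and adjustment over the 15 pairs. Only Spp1 and Pdgfb passed by Pearson's r, at -0.88 (exact p = 0.000992, adjusted p = 0.0149), whereas Spearman's rho of -0.87 did not pass after adjustment (exact p = 0.00451, adjusted p = 0.0676). Without PS2APP 1 and PS2APP 6, the samples farthest from the median of Spp1, r was -0.77. Among the 7 libraries low in immediate early genes r was -0.70 (exact p = 0.0764, adjusted p = 0.348), so the relation did not pass among those libraries, and PS2APP 1 and PS2APP 4 are too few for a value of their own. Without PS2APP 6 and PS2APP 8 it was -0.85 (exact p = 0.0125, adjusted p = 0.188).

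Igf1 and Spp1 had an r of 0.74 (exact p = 0.0243, adjusted p = 0.183) and a rho of 0.70 (exact p = 0.0433, adjusted p = 0.324), and r was 0.31 without PS2APP 1 and PS2APP 4, so it rested on those samples. Igf1 and Csf1 had an r of 0.26 (exact p = 0.504, adjusted p = 0.840), which became 0.86 without PS2APP 1 and PS2APP 4 and -0.72 without PS2APP 6 and PS2APP 8.

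The genes most like each called gene across the 9 PS2APP samples were found among 12199 genes by Pearson's r of log2 CPM, as a description. The highest r of so many genes over 9 samples can be large by selection alone. No chance level was computed, so these values do not show a shared regulation. For Igf1 these were Gas2l3, Rap2b and Rap2a, each with an r of 0.96, and of these Gas2l3 was itself called higher in PS2APP (log2 fold change 1.77, edgeR adjusted p = 0.00454). For Csf1 they were Bsg (0.96), Gm36816 (0.96) and Itm2c (0.94), for Csf2ra Plpp6 (0.96), Nt5c3 (0.92) and Isca1 (0.91), and for Spp1 Gmps (0.92), Cacnb4 (0.91) and Dipk1a (0.91), none of them called by genotype. All values come from the same 9 libraries, which differ in depth and in the marker sums given above.

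The other genes of these pathways were read from 6 lists with 107 genes, of which 74 passed the filter. By edgeR 3 of the 74 rose in PS2APP and 0 fell, 4.05% beside 1.18% over all genes tested, and at an unadjusted p under 0.05 there were 6 higher and 4 lower, a threshold that 11.7% of all genes tested passed in either direction. The median log2 fold change over the 74 genes was -0.01, beside -0.02 over all genes. DESeq2 called 5 higher and 1 lower, and limma-voom 3 higher and 0 lower.

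Of the 8 tested osteopontin receptor genes, Cd44, a receptor for hyaluronan and osteopontin, rose, and 0 fell in edgeR (1 lower at an unadjusted p under 0.05, and 1, Itga9, in DESeq2). Cd44 averaged 5.32 ± 3.52 CPM (SD, n = 6) in non-Tg and 23.1 ± 10 CPM (SD, n = 9) in PS2APP samples, with 8 of 9 PS2APP samples above the non-Tg maximum. Its fitted rise was 4.40-fold (log2 fold change 2.14 ± 0.37 (SE), edgeR adjusted p = 0.00253), called in all 15 fits without 1 library. The abundant integrin chains Itgb5 (-0.08 ± 0.16) and Itgb1 (-0.18 ± 0.19), given as log2 fold change ± SE, were not called.

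Of the 8 tested PDGF and VEGF genes, 2 rose in edgeR and 0 fell, with 0 lower at an unadjusted p under 0.05. DESeq2 called 3 higher and 0 lower, the third being Vegfa, and limma-voom called 1 higher, Nrp1, and 0 lower. Vegfa, a VEGF ligand named here after its values were seen, averaged 1.43 ± 0.771 CPM (SD, n = 6) in non-Tg and 5.44 ± 4.43 CPM (SD, n = 9) in PS2APP samples, with 7 of 9 PS2APP samples above the non-Tg maximum. Its adjusted p was 0.174 in edgeR and 0.0467 in DESeq2. Flt1, a VEGF receptor that is also on the endothelial marker list, averaged 5.42 ± 4.47 CPM (SD, n = 6) in non-Tg and 24.4 ± 12.1 CPM (SD, n = 9) in PS2APP samples, a 4.82-fold rise (edgeR adjusted p = 0.0220, and 0.0702 in limma-voom). Of the 7 tested endothelial markers, Flt1 rose and Pecam1 fell (log2 fold change -1.21, edgeR adjusted p = 0.0107), with Cdh5 at -0.90 and Ly6c1 at -0.81 not called. The summed list, Flt1 included, was 45.4 to 101 CPM in non-Tg and 39.3 to 69.8 CPM in PS2APP samples, and its part in the Flt1 result was not tested. Nrp1, a co-receptor for VEGF and semaphorins, averaged 260 ± 69.1 CPM (SD, n = 6) and 446 ± 116 CPM (SD, n = 9), a 1.67-fold rise (edgeR adjusted p = 0.0256). The call of Flt1 held in 10 of the 15 fits without 1 library and was lost without non-Tg 5, 9 or 13 or PS2APP 10 or 15, at edgeR adjusted p up to 0.0675. The call of Nrp1 held in 9 and was lost without non-Tg 2, 5, 9, 12 or 13 or PS2APP 10, at edgeR adjusted p up to 0.0727. Without the 4 immediate early-high libraries the edgeR adjusted p was 0.00156 for Cd44, 0.110 for Flt1 and 0.0588 for Nrp1, and without the 3 high in mural and fibroblast markers it was 0.0312, 0.139 and 0.119. Fitted by age, Cd44 passed among the 15-month samples (edgeR adjusted p = 0.0427) but not among the 14-month samples (0.156), and Flt1 and Nrp1 passed in neither. With the neuron marker covariate none of the 3 was called. Vegfb (-0.12 ± 0.31, log2 fold change ± SE) was not called.

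**Figure D5:**
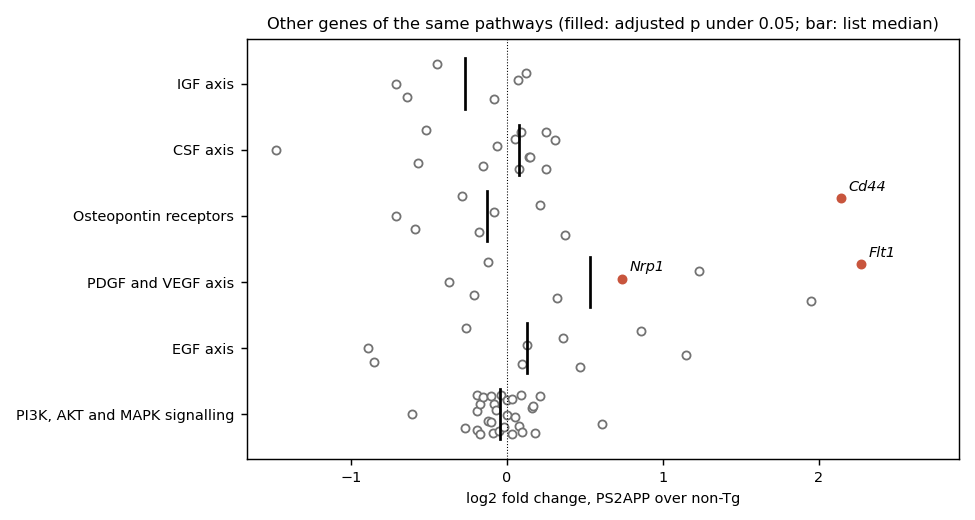
Log2 fold change of PS2APP over non-Tg (horizontal axis) for the 74 tested genes of 6 pathway lists, 1 point per gene, filled where the adjusted p was under 0.05, with a bar at each list's median. The 3 filled points are Cd44 (2.14), Flt1 (2.27) and Nrp1 (0.74), and the genes of PI3K, AKT and MAPK signalling lie between -0.61 and 0.61.

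No gene was called by the reported edgeR fit, DESeq2 or limma-voom among the 6 tested IGF axis genes and the 13 CSF axis genes. The same held for the 30 genes of PI3K, AKT and MAPK signalling. On each of these lists 1 gene had an unadjusted edgeR p under 0.05 (11.7% of all genes tested). The median log2 fold changes of the lists were -0.27, 0.08 and -0.05. Without the count filter edgeR called Socs3, on the CSF list, lower (log2 fold change -1.47, adjusted p = 4.23e-06). In the reported edgeR fit the adjusted p of Socs3 was 0.381. The 2 genes of each list with the highest median RPKM are given as log2 fold change ± SE. On the IGF list these were Insr, the insulin receptor (0.07 ± 0.12), and Igfbp4, an IGF-binding protein (-0.71 ± 0.25). On the CSF list they were Inpp5d, a phosphatase of myeloid signalling (-0.15 ± 0.13), and Csf3r, the G-CSF receptor (0.31 ± 0.18). On the signalling list they were Dusp6, an ERK phosphatase (-0.05 ± 0.21), and Pik3cg, a PI3-kinase subunit (-0.19 ± 0.14). Among the 9 EGF axis genes edgeR called 0, with 1 at an unadjusted p under 0.05. This was the tetraspanin Cd9, with a log2 fold change of 0.86 ± 0.25 (SE) and an edgeR adjusted p of 0.115, which DESeq2 (adjusted p = 0.0247) and limma-voom (adjusted p = 0.0332) called. Adam10, a protease that sheds ligands of this family, had 0.36 ± 0.22 (log2 fold change ± SE).

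Several partner genes of the ligands had few reads in these sorted cells. Csf2, which encodes GM-CSF, had 0 reads in all 15 samples, which allows up to 0.0353 CPM (3 reads over all samples, counting error only). Il34, the other ligand of CSF1R, had 18 reads in all, and the PDGF receptor genes Pdgfra and Pdgfrb had 70 and 118 reads. None of these passed the filter, so their levels were not tested.

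Because the 4 called genes rose together in PS2APP, the 250 bases before an annotated transcription start of each were read from RefSeq (GRCm38.p6), which held a promoter for 4 of 4. The motifs searched on both strands were AP-1 (TGANTCA), PU.1 (GAGGAA), the E-box (CACGTG) and the core promoter box TATAAA, and matches are printed in capitals, 5′ to 3′ on the gene's strand. The pattern TGANTCA is wider than the AP-1 consensus, whose middle base is C or G. For Igf1 only the 30 bases that span its matches are shown, because the window lies in an annotated exon of another transcript. That window is inside the gene, whose span begins at chr10:87858265, so it is not upstream of the whole gene. The Csf2ra window overlaps the span of its gene, which ends at chr19:61228461, and 11 of its bases lie in an annotated exon. Both Csf2ra matches lie within the gene's span.
Igf1: GAGGAAgggaaggagctggaactTGAATCA
Csf1: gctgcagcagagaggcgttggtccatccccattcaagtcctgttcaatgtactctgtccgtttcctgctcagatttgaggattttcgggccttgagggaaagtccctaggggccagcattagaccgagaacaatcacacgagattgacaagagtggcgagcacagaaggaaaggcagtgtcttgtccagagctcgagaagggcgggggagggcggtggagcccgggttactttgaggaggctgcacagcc
Csf2ra: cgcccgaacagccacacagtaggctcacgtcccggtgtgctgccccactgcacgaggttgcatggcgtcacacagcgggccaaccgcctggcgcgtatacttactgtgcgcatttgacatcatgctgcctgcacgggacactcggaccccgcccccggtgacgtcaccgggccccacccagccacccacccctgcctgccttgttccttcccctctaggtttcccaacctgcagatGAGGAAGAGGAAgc
Spp1: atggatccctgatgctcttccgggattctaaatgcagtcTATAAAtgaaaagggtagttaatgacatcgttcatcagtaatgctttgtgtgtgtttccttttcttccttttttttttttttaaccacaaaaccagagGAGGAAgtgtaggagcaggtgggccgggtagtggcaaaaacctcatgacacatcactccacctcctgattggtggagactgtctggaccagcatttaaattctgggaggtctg
The Igf1 stretch is chr10:87861051-87861080 (plus strand), that of Csf1 chr3:107760470-107760719 (minus), that of Csf2ra chr19:61228419-61228668 (minus) and that of Spp1 chr5:104434861-104435110 (plus, the first annotated start). The window of a second Spp1 start, chr5:104435942-104436191, held none of the 4 motifs and is not printed. GAGGAA was found in Igf1 at -60 to -55, in Csf2ra at -14 to -9 and -8 to -3, side by side without overlap, and in Spp1 at -113 to -108, counted back from the start, and 23.3% of 32851 mouse promoters of this length hold it. TGANTCA was found in Igf1 at -37 to -31 (6.75% of promoters), TATAAA in Spp1 at -211 to -206 (12.4%) and CACGTG in none of the 4 (6.02%). The Igf1 match, TGAATCA, has an A in the middle and so is not the AP-1 consensus. The Csf1 stretch held none of the 4 motifs. A match describes the letters in the window and is no evidence of binding.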

How the data were processed

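RNA from 15 samples of Cx3cr1::GFP+ cortical cells was sequenced. The authors deposited whole-number counts per NCBI gene ID and RPKM values per sample; reads were aligned to GRCm38 with GSNAP, per the submitters' processing notes, and the counting step is not given in the sources used here. Of 36528 IDs, 31049 matched a RefSeq symbol, with 97.2% to 98.2% of the counts. Totals ran from 3664742 to 8455237 counts per sample. All 51 pairs of replicates differed beyond sampling noise.

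Genes were filtered with filterByExpr, scaled by TMM and tested with edgeR 4.0.16 (R 4.3.3) on age and genotype, with Benjamini-Hochberg adjustment over 13994 genes and a threshold of 0.05. On simulated counts with 200 changed genes, the fit called 35.1% of the 2-fold and 81.2% of the 4-fold changes. Of its calls there, 3.45% were false. Alternatives were DESeq2 1.42.0, limma 3.58.1 (voom with quality weights per sample, and log2(RPKM + 1) with a pseudocount of 1), other scalings and filters, sample subsets, a neuron marker covariate and each library left out. CPM for relations and likeness used a prior count of 2. The genes named by rule outside the 10 are the called ones and the 2 highest in median RPKM of each list, and the 3 most alike (average log2 CPM of at least 2). Other named genes, such as Vegfa, Itga9, Socs3, Csf2, Il34, Pdgfra, Pdgfrb and single cell type markers, were not picked by this rule. The members, lists and tests were chosen with earlier results of these data known.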

Additional observations from a re-analysis of the deposited data

Results flagged for a closer look

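In 20 groups of values (10 genes in each genotype), a sample set apart from the rest of its group was sought. The measure was its gap to the nearest sample over the group's whole range, in CPM. Chance marks about 1 in 20 such groups if their values are normally distributed, which was not checked. The gaps were not taken on the log2 scale, where they can differ. Of the 20 groups, 3 held such a sample.

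Igf1 in PS2APP 8 was 342 CPM, beside 193 CPM in the nearest PS2APP sample and 62.5 CPM in the lowest, a gap of 0.532 of the range against a critical value of 0.493. Igf2r in non-Tg 5 was 8.59 CPM, with the other non-Tg samples at 0.164 to 1.58 CPM, a gap of 0.831 against 0.625. Hbegf in PS2APP 3 was 7.32 CPM, with the other PS2APP samples at 0.374 to 3.17 CPM, a gap of 0.598 against 0.493. PS2APP 8 and non-Tg 5 are also high in mural and fibroblast markers, at 253 and 228 CPM, and the part of those markers in these values was not tested.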

How the results depend on the processing

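No paired analysis was possible because the sample numbers in the labels are not shared between the genotypes. Of the 10 genes, 4 were called in the reported fit, beside 165 genes in all and 3 of the 74 pathway genes. The counts of all genes, of the 10 and of the pathway genes were 50, 1 and 0 at 14 months alone, 65, 1 and 1 at 15 months alone, 81, 1 and 1 without the 3 libraries low in Xist, 13, 1 and 0 with the neuron marker covariate, and 85, 1 and 1 without the 3 libraries high in collagen (mural and fibroblast) transcripts, the last being a subset picked once the values were known. With the 4 immediate early-high libraries left out, 2 of the 10 and 1 pathway gene were called. With no count filter 648 genes and 5 pathway genes were called, and with DESeq2 388 and 6. With 1 library left out at a time the counts ran from 118 to 188, from 1 to 4 (1 without non-Tg 5, 2 without non-Tg 13 or PS2APP 15) and from 1 to 5. Among pathway genes it was 5 without PS2APP 4 and 1 without non-Tg 5, 9 or 13 or PS2APP 10. Igf1 was called in all 15 fits with a library left out and in all 15 other alternatives, where it ran from 2.05 on the log2(RPKM + 1) scale to 6.15 at 14 months. The count of ligand pairs that passed was 1, and 0 without PS2APP 1 and PS2APP 4 or without PS2APP 6 and PS2APP 8, both chosen after seeing the data.

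Sign changes fell on genes that were not called. Igf1r was -0.01 with limma-voom, -0.02 at 15 months, -0.00 without the libraries low in Xist and -0.04 to 0.06 with 1 library left out. Igf2r was -0.09 without the age term, -0.11 with limma-voom, -0.02 on log2(RPKM + 1), -0.90 at 14 months, -0.02 without the libraries low in Xist, -1.33 with the neuron covariate and -0.11 to 0.91 in the 10 fits with 1 library left out that tested it. Csf1r was 0.11 at 14 months, and with the neuron covariate Pdgfa was -0.11 and Hbegf 0.26, all as log2 fold changes. The cause was not tested. Igf2r and Hbegf failed the count filter at 15 months alone, and Igf2r also without the 3 collagen-high libraries and without PS2APP 3, 4, 6, 8 or 15. The subsets hold fewer samples.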
